A study of Mus musculus with 47 samples.

Results

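The oxidative phosphorylation genes described here encode the subunits of the respiratory chain and of ATP synthase. Members were all genes whose symbol in either of the authors' tables of compared genes starts with Ndufa, Ndufb, Ndufc, Ndufs, Ndufv, Sdha, Sdhb, Sdhc, Sdhd, Uqcr, Cox4, Cox5, Cox6, Cox7, Cox8, Atp5, mt-Nd, mt-Co, mt-Atp or mt-Cytb, without the assembly factors Ndufaf and Sdhaf. Those tables name the mitochondrially encoded genes otherwise (ND1, COX1, CYTB, ATP6), so these 13 were matched by their Ensembl identifier. In total, 101 of 55416 genes were members, of which 88 are nuclear and 13 are encoded by mitochondrial DNA. Complex I held 40 nuclear and 7 mitochondrial members, complex II 4 nuclear, complex III 8 and 1, complex IV 18 and 3, and complex V (ATP synthase) 18 and 2. By role, 34 members are core subunits, 56 are accessory subunits, 6 are tissue-restricted isoforms made by separate genes and 3 are gene copies, beside the ATP synthase inhibitor Atp5if1 and the supercomplex factor Cox7a2l. All 101 members passed the filter on low counts in each sex.

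RNA was sequenced from brains of male and female 3xTg mice, a model of Alzheimer's disease that carries mutant human APP and tau and a mutant presenilin 1, in Control and restricted groups alike. From 6 months of age the mice ate for 9 months an amino acid-defined Control diet or a diet with lowered isoleucine (IleR), leucine (LeuR) or valine (ValR). There were 4 Control, 3 IleR, 3 LeuR and 4 ValR male libraries, and 6 Control, 5 IleR, 6 LeuR and 6 ValR female libraries; the other 10 of 24 male libraries are not analysed here. Each library is named by its diet and its title number, which no other library carries, and p-values measure the spread between these libraries. The labels give the tissue as brain and in another place name liver as the source of the RNA, while the methods name the left hemisphere and elsewhere the whole brain is described. All 10 pan-neuronal markers were expressed in each group. The labels describe both a polyA-enriched and a total RNA preparation, which bears on the mitochondrial transcripts in particular, and which of these was used was not tested.

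Complexes I to IV sit in the inner mitochondrial membrane and pass electrons from NADH and succinate through ubiquinone and cytochrome c to oxygen. Complexes I, III and IV pump protons as they do so, and ATP synthase uses the return of protons to make ATP. Complex I and complex IV hold a conserved catalytic core wrapped by many accessory subunits that are all nuclear. The core is encoded partly in mitochondrial DNA in complex I and wholly so in complex IV. In brain the demand on the system is set largely by neuronal ion pumping.

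Total expected counts per library were 12682687 to 25722333 in males and 10672599 to 21370973 in females. Markers of brain regions differed between the male groups. The summed level of 15 cerebellar markers was 529.8 to 1351 CPM (counts per 1000000 after TMM scaling) in Control, 3041 to 7826 in IleR, 632 to 2961 in LeuR and 3096 to 10167 in ValR. For 15 brainstem and spinal cord markers the sums were 42.0 to 286, 271 to 569, 299.9 to 939 and 293 to 909 CPM, and Hoxa5, Hoxb5 and Hoxc4 were at 0 in all 4 Control libraries. For 15 forebrain markers they were 1045 to 2888, 291 to 424, 422 to 719 and 292 to 387 CPM. A hindbrain score was computed per library, the mean log2 CPM of the first 2 lists minus that of the third. It was -6.42 to -3.79 in male Control, 1.24 to 3.34 in IleR, -2.75 to 3.06 in LeuR and 3.34 to 4.26 in ValR, so that no restricted male library overlapped Control. In females the score was -6.44 to 0.295 in Control, -6.25 to -0.670 in IleR, -6.09 to 3.59 in LeuR and -6.07 to 0.166 in ValR, and the groups overlapped. In bulk tissue, fewer cells of a type and less RNA per cell cannot be told apart, and diet and hindbrain score cannot be told apart in these males.

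Levels per length were compared in male Control brains as RPKM (CPM per kilobase of exon, mean ± SD, n = 4). The 13 mitochondrial members reached 195 to 9706 RPKM and the 88 nuclear members 1.09 to 321, with a nuclear median of 39.6. mt-Co1, which holds the oxygen-reducing centre of complex IV, led with 9706 ± 376 RPKM. It was followed by mt-Cytb of complex III at 4598 ± 314 and by mt-Nd1 of complex I at 4543 ± 171, which lay within 1 SD of each other. mt-Nd6, the only 1 of the 13 encoded on the other strand, was the lowest of them at 195 ± 45.0 RPKM. Among nuclear genes, Cox8a and Cox6a1, small subunits of complex IV, stood at 321 ± 28.3 and 247 ± 20.8 RPKM. They were followed by the ATP synthase subunit genes Atp5f1a at 241 ± 12.9 and Atp5f1b at 204 ± 5.71, with Cox4i1 between them at 216 ± 7.45. Of the 100 pairs of neighbours in this order, 13 were further apart than their SDs, so that the order is only coarse. By complex, the nuclear medians were 33.1 RPKM for complex I, 39.5 for II, 57.9 for III, 49.5 for IV and 47.5 for V. Of the nuclear members, 7 were under 5 CPM, 6 of them tissue-restricted complex IV isoforms.

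**Figure D1:**
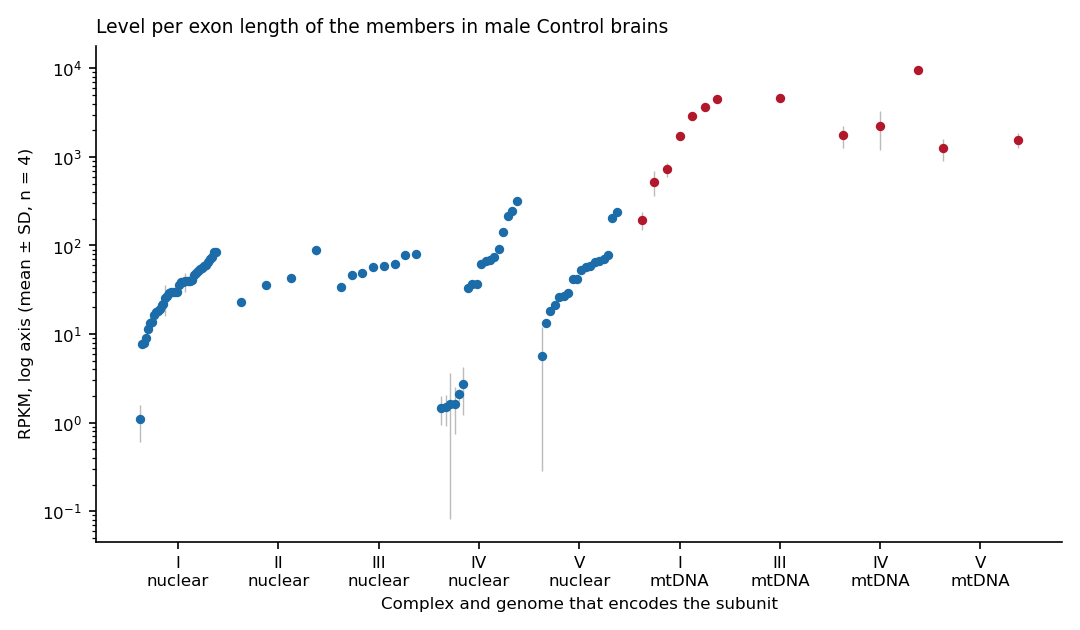
Level of each member in male Control libraries (RPKM, log axis), by complex and genome; points are means of 4 libraries and bars are SDs, lower bars that would cross 0 being cut short. The 13 mitochondrial members lie between 195 and 9706 RPKM and the nuclear median is 39.6.

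Each restricted diet was compared with Control in males to ask whether the subunit genes moved, and in which complexes. Of the 40 nuclear members of complex I, 7 were called higher in IleR, 8 in LeuR and 7 in ValR and none lower, single subunits of complexes II, IV and V were called as well, most of them in ValR, and no mitochondrial member was called. By the quasi-likelihood test of edgeR, with p adjusted by Benjamini-Hochberg over 22197 genes, 8 of 101 members were higher and 0 lower in IleR, 9 and 0 in LeuR, and 15 and 1 in ValR. Among all genes tested, 6.63% were higher and 8.68% lower in IleR, 3.81% and 6.33% in LeuR, and 11.1% and 12.4% in ValR. Most members are well expressed, and among genes whose mean log2 CPM reached 4 the shares called higher were 8.62%, 4.98% and 15.0%. The members' shares of 7.92% in IleR and 14.9% in ValR are near these, and in LeuR the share was 8.91%. Among those better expressed genes 14.3%, 11.5% and 18.0% were called lower, against 0, 0 and 1 member. At an unadjusted p under 0.05, 1 member was lower in IleR and 1 in LeuR, and DESeq2 and limma voom called 0 lower in both. The number called higher depended on the method: it was 12, 24 and 19 by DESeq2, 9, 10 and 14 by limma voom, 22, 26 and 29 with library totals in place of TMM scaling, and 7, 0 and 8 when only the 2 groups compared entered the fit, so that no LeuR call was left there. With no filter on low counts, 9 members were higher in ValR.

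The log2 fold change was above 0 for 75 members in IleR, 89 in LeuR and 83 in ValR, where 53.7%, 54.7% and 52.5% of all genes were above 0. Its median over members was 0.12, 0.21 and 0.14, against 0.043, 0.053 and 0.032 over all genes. The nuclear members alone had medians of 0.14, 0.22 and 0.16, and the mitochondrial ones of -0.11, 0.17 and -0.025; with library totals in place of TMM scaling the latter were 0.010, 0.27 and 0.066, so that their sign in IleR and ValR turns with the scaling. Every library of the restricted group lay above every Control library for 33 members in IleR (14.8% of all genes), 28 in LeuR (8.21%) and 24 in ValR (12.7%), and below it for 1 member, Ndufb3 in ValR (13.6%). The 3 comparisons share the same 4 Control libraries. Once the hindbrain score entered the model, 0 members were called in any diet by edgeR, and 1, 2 and 2 members had an unadjusted p under 0.05. In the same fits 3, 11 and 0 of all 22197 genes were called, and 5.74%, 6.65% and 6.22% had an unadjusted p under 0.05. The log2 fold change of Ndufv3 was then 0.24, 0.28 and 0.31, that of Ndufa2 0.098, 0.15 and 0.050 and that of Sdhc 0.076, 0.077 and 0.068. Of the 33 log2 fold changes that had been called in the 3 diets, 13 changed sign in these fits. They are listed with their values in the last section.

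**Figure D2:**
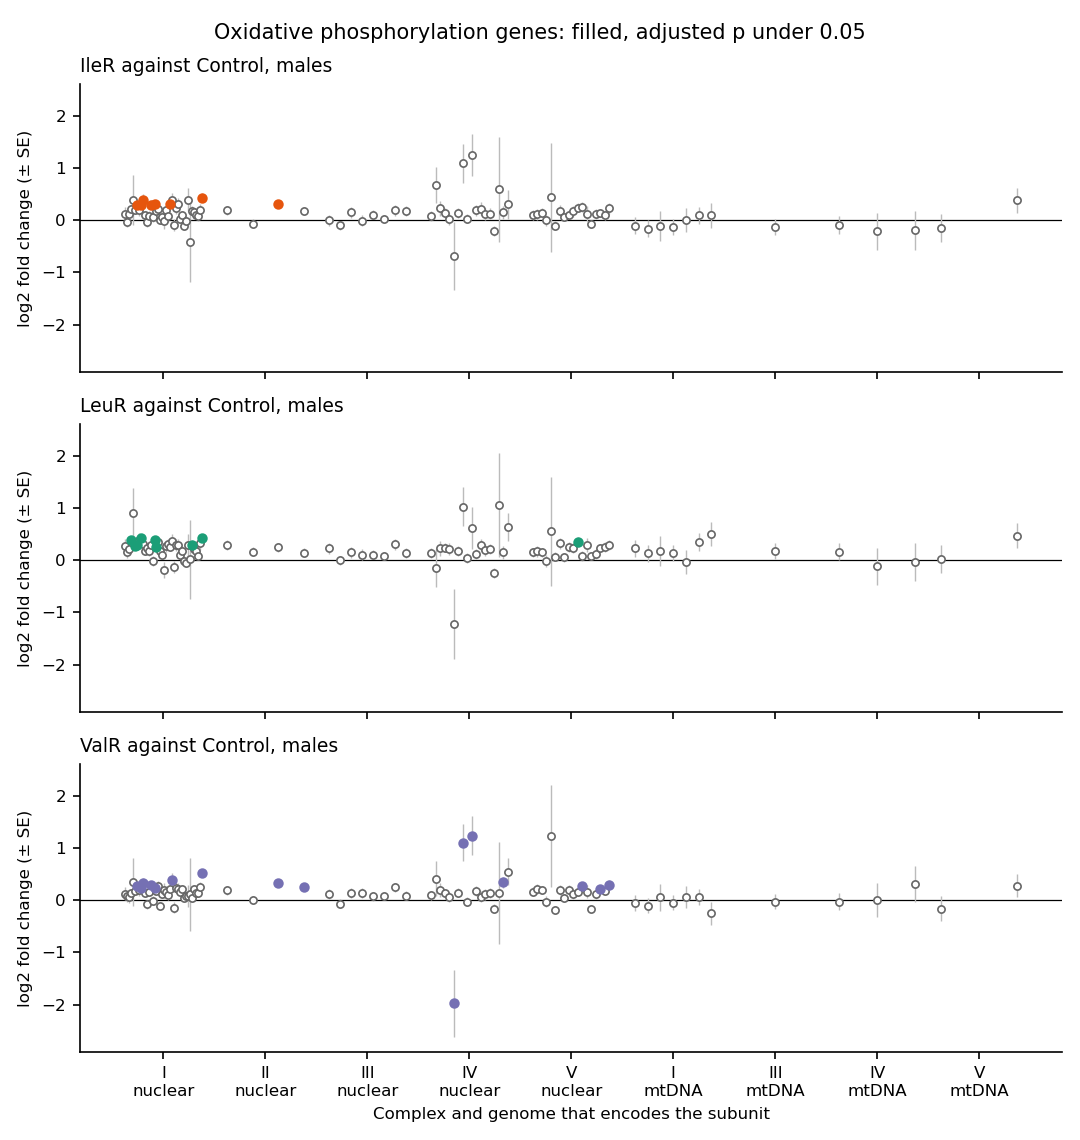
Log2 fold change of each member against male Control in IleR, LeuR and ValR, grouped by complex and genome; points are edgeR estimates, bars are standard errors, and filled points have an adjusted p under 0.05. Nuclear complex I genes make up 7 of the 8 filled points in IleR, 8 of 9 in LeuR and 7 of 16 in ValR, and none of the 13 mitochondrial genes is filled.

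Leaving out 1 library moved these counts. In IleR, 8 became 2 without Control 1, 5 without Control 3 or Control 5, 1 without IleR 13 or IleR 14 and 2 without IleR 17. In LeuR, 9 became 4 without Control 1, 3 or 5 or LeuR 20, 17 without Control 4, 1 without LeuR 19 and 38 without LeuR 21, the LeuR library with the lowest hindbrain score. In ValR, 15 became 4 without Control 1, 7 without Control 3, 5 without Control 5, 3 without ValR 10, 7 to 9 without ValR 7, 9 or 12 or IleR 13, 14 or 17, 8 without LeuR 20, and 24 without LeuR 21. The share of all genes called higher moved too, between 2.84% and 8.80% in IleR, 0.631% and 7.90% in LeuR and 7.66% and 13.3% in ValR; it was 0.631% in LeuR without LeuR 19 and 7.09% without LeuR 21. Of the 33 calls in the 3 diets, 5 held in all 14 repeats: Ndufv3 in IleR and ValR, Ndufa5 in LeuR, and Ndufa2 and Sdhc in ValR. The other 28 were lost in at least 1 repeat, with a highest adjusted p of 0.055 to 0.196 for each. Leaving out Control 1 lost 23 of the 33, Control 5 20, IleR 13 19, Control 3 17, IleR 14 or ValR 10 16, IleR 17 or LeuR 20 14, ValR 9 13, ValR 7 11, ValR 12 9, LeuR 19 8, Control 4 4 and LeuR 21 0.

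The complex I genes called by edgeR all encode accessory subunits, while a difference between accessory and core subunits was not tested. Ndufv3 (ENSMUSG00000024038, chromosome 17, 31520115 to 31531331, plus strand in GRCm38, GENCODE M21), a small subunit of the NADH-oxidizing module, was called in all 3 diets. Ndufv3 stood at 32.3, 39.1, 37.5 and 37.6 CPM in the 4 male Control libraries, 46.7, 51.2 and 50.2 in IleR, 51.2, 49.1 and 47.0 in LeuR and 52.7, 58.3, 48.2 and 51.5 in ValR. All 10 restricted libraries lay above all 4 Control libraries. The log2 fold change was 0.43 (SE 0.088, adjusted p = 0.0060) in IleR, 0.42 (SE 0.088, adjusted p = 0.013) in LeuR and 0.52 (SE 0.082, adjusted p = 0.00064) in ValR. The IleR and ValR calls held without any 1 library, and the LeuR call was lost without LeuR 19 (adjusted p = 0.063). The ValR log2 fold change stayed between 0.47 and 0.56 with 1 library left out.

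Ndufa5 (ENSMUSG00000023089, chromosome 6, 24518666 to 24528013, minus strand), an accessory subunit of the arm that reaches into the matrix, was also called in each diet. Ndufa5 measured 39.0, 35.6, 37.5 and 36.9 CPM in the 4 male Control libraries, 44.5, 45.7 and 47.5 in IleR, 52.0, 52.8 and 45.4 in LeuR and 46.0, 40.5, 45.9 and 42.4 in ValR. No restricted library fell into the Control range. The log2 fold change was 0.30 (SE 0.081, adjusted p = 0.023) in IleR, 0.43 (SE 0.080, adjusted p = 0.0084) in LeuR and 0.23 (SE 0.075, adjusted p = 0.041) in ValR, and the LeuR call held without any 1 library. Ndufb10 (ENSMUSG00000040048, chromosome 17, 24722060 to 24724478, minus strand) belongs to the membrane arm. Ndufb10 reached 78.3, 76.8, 84.0 and 80.9 CPM in the 4 male Control libraries, 95.3, 102 and 98.9 in IleR, 116, 103 and 94.0 in LeuR and 99.1, 97.2, 96.7 and 85.2 in ValR. Again the groups did not overlap, with log2 fold changes of 0.30 (SE 0.085, adjusted p = 0.028), 0.38 (SE 0.085, adjusted p = 0.016) and 0.24 (SE 0.079, adjusted p = 0.042). The IleR and ValR calls were each lost in 7 or more of 14 repeats with 1 library left out. With the hindbrain score as a covariate, the log2 fold change had the other sign for Ndufb10 in IleR and ValR and for Ndufa5 in ValR.

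Ndufa2, an accessory subunit of the NADH-oxidizing module, completed the 4 members called in all 3 diets. Ndufa2 read 29.1, 31.4, 30.7 and 31.3 CPM in the 4 male Control libraries, 36.7, 38.4 and 37.5 in IleR, 39.8, 37.4 and 35.4 in LeuR and 36.2, 39.6, 37.2 and 35.3 in ValR. Its lowest restricted library was above its highest Control library. The log2 fold changes were 0.29 (SE 0.075, adjusted p = 0.020), 0.29 (SE 0.075, adjusted p = 0.028) and 0.27 (SE 0.070, adjusted p = 0.012), and its ValR call held without any 1 library. Ndufa2 shares 66 exon bases with Tmco6 on the other strand. The methods name a stranded library protocol, but the strand setting of the counting is not given in the sources used here.

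Other accessory subunits of complex I were called in 1 or 2 diets. Ndufa6, a subunit near the ubiquinone-reducing module, had log2 fold changes of 0.39 (SE 0.11, adjusted p = 0.025) in IleR, 0.31 (SE 0.11, adjusted p = 0.076) in LeuR and 0.32 (SE 0.10, adjusted p = 0.031) in ValR. Ndufab1, the mitochondrial acyl carrier protein, had 0.29 (SE 0.092, adjusted p = 0.048) in IleR and 0.29 (SE 0.086, adjusted p = 0.026) in ValR, and the IleR call was kept in 2 of 14 repeats with 1 library left out. Ndufb7, of the membrane arm, was called in IleR at 0.31 (SE 0.085, adjusted p = 0.028). In LeuR, Ndufa12 had 0.39 (SE 0.077, adjusted p = 0.010), Ndufa13 0.27 (SE 0.062, adjusted p = 0.018), Ndufb11 0.26 (SE 0.072, adjusted p = 0.039) and Ndufs6, a zinc-binding subunit, 0.29 (SE 0.087, adjusted p = 0.049). Ndufa12 stood at 61.2, 57.3, 66.9 and 59.6 CPM in Control and 84.4, 81.8 and 74.7 in LeuR, without overlap, and its call was lost only without LeuR 19 (adjusted p = 0.055). The Ndufs6 call was kept in 2 of 14 repeats. In ValR, Ndufb8 had 0.40 (SE 0.12, adjusted p = 0.032), with 62.2, 64.7, 78.7 and 62.6 CPM in Control and 89.5, 98.4, 88.8 and 76.5 in ValR. With the hindbrain score as a covariate, the ValR log2 fold changes of Ndufb8, Ndufa6 and Ndufab1 had the other sign.

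None of the 7 nuclear core genes of complex I was called by edgeR or limma voom in any diet. By edgeR, 0 were higher in IleR, 3 in LeuR and 4 in ValR at an unadjusted p under 0.05, and DESeq2 called 0, 0 and 2 higher, among them Ndufs7 in ValR. Ndufs1, which carries iron-sulfur clusters, Ndufv1 and Ndufv2 of the NADH site, and Ndufs7 of the ubiquinone site had log2 fold changes of 0.025 to 0.32 over the 3 diets, with edgeR's adjusted p of 0.062 to 0.866. Ndufv1 measured 123, 131, 137 and 123 CPM in Control and 140.0, 158, 133 and 134 in ValR, where its log2 fold change was 0.14 (95% interval -0.019 to 0.30). This interval includes changes as large as some of the called ones. Ndufb3, an accessory subunit, went the other way in ValR, at 40.9, 41.2, 44.0 and 41.8 CPM in Control and 40.7, 38.6, 40.2 and 35.7 in ValR, with every ValR library below Control and -0.11 (SE 0.069, adjusted p = 0.266); in IleR and LeuR its log2 fold changes were -0.0030 and 0.17.

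**Figure D3:**
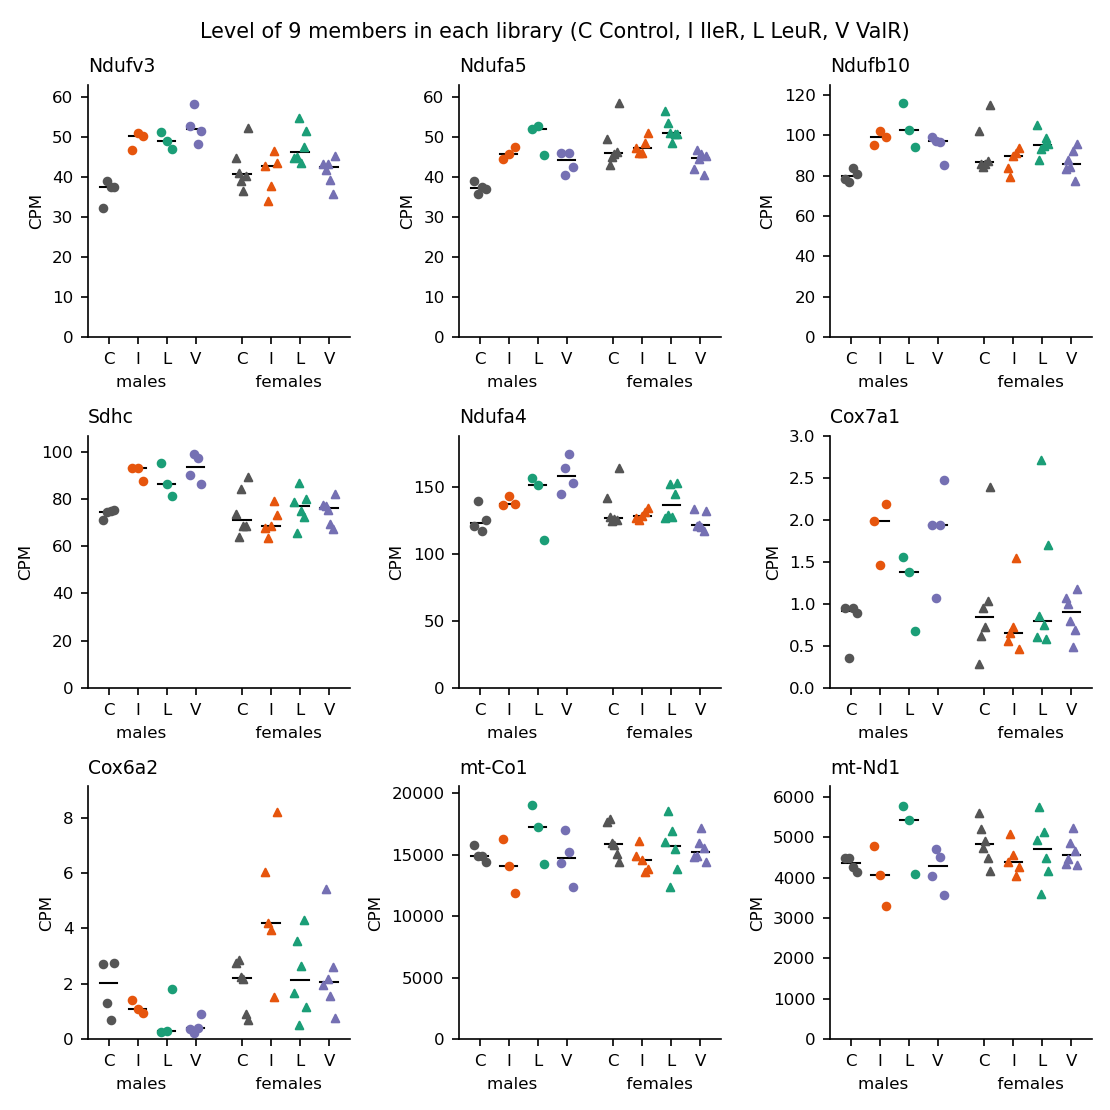
CPM of 9 members in each male (circles) and female (triangles) library, for Control (C), IleR (I), LeuR (L) and ValR (V); points are libraries and bars are group medians. In males, Ndufv3, Ndufa5, Ndufb10 and Sdhc show restricted libraries above all Control libraries, while mt-Co1 and mt-Nd1 overlap between groups.

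Complex II, succinate dehydrogenase, couples the citric acid cycle to ubiquinone through 4 nuclear subunits. Its membrane anchor Sdhc (ENSMUSG00000058076, chromosome 1, 171127165 to 171150603, minus strand) was called in IleR and ValR. Sdhc stood at 71.2, 74.3, 74.8 and 75.5 CPM in the 4 male Control libraries, 93.1, 93.0 and 87.5 in IleR, 95.0, 86.4 and 81.3 in LeuR and 90.0, 99.0, 97.1 and 86.1 in ValR. Every restricted library was above every Control library, in LeuR too. The log2 fold change was 0.30 (SE 0.077, adjusted p = 0.018) in IleR, 0.24 (SE 0.077, adjusted p = 0.061) in LeuR and 0.33 (SE 0.072, adjusted p = 0.0047) in ValR, and the ValR call held without any 1 library. The other anchor, Sdhd, was called in ValR at 0.25 (SE 0.077, adjusted p = 0.030). That change had the other sign with the hindbrain score as a covariate. The catalytic subunit Sdha had log2 fold changes of 0.19, 0.30 and 0.19 and the iron-sulfur subunit Sdhb -0.067, 0.16 and 0.0092, with adjusted p of 0.059 or more by edgeR, while DESeq2 called Sdha higher in LeuR. Sdha stood at 343, 349, 421 and 337 CPM in Control, where Control 4 was set apart, and at 471, 419 and 446 in LeuR.

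Complex III, which passes electrons from ubiquinol to cytochrome c, held no called member in any diet by edgeR or limma voom, and DESeq2 called 1 higher in LeuR. At an unadjusted p under 0.05 by edgeR there were 0 members in IleR, 2 in LeuR and 1 in ValR. The log2 fold changes of its 8 nuclear members were -0.094 to 0.19 in IleR, 0.0033 to 0.30 in LeuR and -0.062 to 0.24 in ValR. The Rieske iron-sulfur protein gene Uqcrfs1 measured 82.0, 86.5, 84.7 and 84.6 CPM in Control and 87.3, 83.1, 97.5 and 87.7 in ValR, which overlap, with a log2 fold change of 0.074 (SE 0.070). The core protein genes Uqcrc1 and Uqcrc2 had 0.14 and 0.073 in ValR.

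In complex IV the members called by edgeR were Ndufa4 and 3 of the 6 tissue-restricted isoforms, all in ValR. Ndufa4 (ENSMUSG00000029632, chromosome 6, 11900292 to 11907497, minus strand), first described with complex I and now placed in complex IV, was at 121, 139, 117 and 125 CPM in Control and 145, 164, 174 and 153 in ValR, without overlap, with a log2 fold change of 0.34 (SE 0.11, adjusted p = 0.035). Cox7a1, the heart and skeletal muscle form of subunit VIIa, stood at 0.953, 0.355, 0.955 and 0.894 CPM in Control, 1.99, 1.47 and 2.19 in IleR, 1.57, 1.38 and 0.677 in LeuR and 1.94, 1.08, 1.95 and 2.48 in ValR. Every IleR and ValR library was above Control, and LeuR overlapped it. The Control libraries held only 14, 6, 15 and 16 counts of Cox7a1. The log2 fold change was 1.24 (SE 0.38, adjusted p = 0.031) in ValR and 1.24 (SE 0.40, adjusted p = 0.050) in IleR, where it was not called.

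Cox6b2, the testis form of subunit VIb, measured 0.749, 1.18, 2.61 and 2.74 CPM in Control and 3.96, 4.52, 3.24 and 4.01 in ValR, with every ValR library above Control and a log2 fold change of 1.10 (SE 0.35, adjusted p = 0.038). Every IleR and LeuR library was above Control too, although Cox6b2 was not called in these diets. The Control libraries held only 11, 20, 41 and 49 counts of it. Cox6a2, the muscle form of subunit VIa, went down. It was at 2.72, 1.30, 0.700 and 2.74 CPM in Control, 1.43, 1.09 and 0.948 in IleR, 0.269, 0.307 and 1.81 in LeuR and 0.360, 0.202, 0.413 and 0.892 in ValR, which is 5, 3, 7 and 14 counts, close to the limit of measurement. ValR and Control overlapped, and the log2 fold change was -1.98 (SE 0.65, adjusted p = 0.041), a call that was kept in 5 of 14 repeats with 1 library left out. With the hindbrain score as a covariate, the ValR log2 fold changes of Cox6a2, Cox6b2, Cox7a1 and Ndufa4 all had the other sign. Striated muscle markers in the same libraries summed to 2.83 to 13.1 CPM, and 4 of them were called lower in ValR; their part in these values was not tested. Per length, the rare forms stayed minor: Cox7a1 was 0.900% to 2.72% of Cox7a2 in Control and 2.64% to 6.32% in ValR, and Cox6a2 was 0.407% to 1.74% of Cox6a1 and 0.120% to 0.490%.

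The widely expressed complex IV genes Cox4i1, Cox5a, Cox5b, Cox6a1, Cox6b1, Cox7a2, Cox8a and Cox7a2l had log2 fold changes of -0.24 to 0.29 over the 3 diets, none called by edgeR (adjusted p of 0.104 or more). Cox4i1, the main form of subunit IV, measured 326, 348, 339 and 324 CPM in Control and 339.6, 378, 369.8 and 338 in ValR, with a log2 fold change of 0.093 (SE 0.090). The remaining rare forms, Cox4i2, Cox8b and Ndufa4l2, were not called in any diet and had ValR log2 fold changes of 0.41, 0.14 and 0.55. Cox8b had 0 to 52.0 counts in the male libraries.

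In ATP synthase the called genes encode the stalk and membrane parts. Atp5mf, a membrane subunit, was called in LeuR, at 70.9, 68.8, 74.3 and 67.0 CPM in Control and 93.0, 94.5 and 82.0 in LeuR, with a log2 fold change of 0.35 (SE 0.094, adjusted p = 0.031). In ValR, Atp5po, the oligomycin-sensitivity protein of the outer stalk, had 0.29 (SE 0.095, adjusted p = 0.040), the stalk subunit gene Atp5pd 0.21 (SE 0.072, adjusted p = 0.045) and the membrane subunit gene Atp5mg 0.27 (SE 0.089, adjusted p = 0.044). The changes of Atp5po and Atp5pd had the other sign with the hindbrain score as a covariate. Atp5po shares 243 exon bases with a second Atp5o gene model that lies on the same strand and is not a member. The catalytic head was not called by edgeR or DESeq2: Atp5f1a, Atp5f1b and Atp5f1c had log2 fold changes of 0.10 to 0.21 over the diets. Atp5f1b measured 829.8, 882, 881 and 862 CPM in Control and 960.1, 1029.5, 1027 and 974 in ValR. The 3 genes for the identical proton-carrying c subunit, Atp5mc1, Atp5mc2 and Atp5mc3, had 0.044 to 0.33, and the inhibitor gene Atp5if1 -0.10, 0.067 and -0.19, none of them called by edgeR; DESeq2 called Atp5mc1 and Atp5mc3 higher in LeuR.

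The 13 mitochondrial members were not called in any diet by edgeR, DESeq2 or limma voom, and 0 of them had an unadjusted p under 0.05 by edgeR. mt-Co1 stood at 15801, 14852, 14915 and 14418 CPM in the 4 male Control libraries, 16307, 14103 and 11857 in IleR, 19021, 17242 and 14246 in LeuR and 14324, 17029, 15208 and 12389.5 in ValR. The groups overlapped, and the spread within IleR alone was larger than the difference between any restricted group mean and Control. mt-Nd1 measured 4488, 4478, 4274 and 4152 CPM in Control, 4791, 4061 and 3297 in IleR, 5783, 5425 and 4093 in LeuR and 4039, 4724, 4524 and 3564 in ValR. The log2 fold changes of the 13 were -0.21 to 0.39 in IleR, -0.11 to 0.50 in LeuR and -0.25 to 0.32 in ValR. Their standard errors were 0.14 to 0.37, wider than that of Ndufv3, so that changes of the size called in complex I could be missed.

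Summed over the 40 nuclear complex I genes, male Control libraries held 2147 to 2306 CPM, IleR 2361 to 2489.9, LeuR 2359 to 2748 and ValR 2360.4 to 2584, with no restricted library in the Control range. All 88 nuclear members summed to 7849.9 to 8324 CPM in Control, 8520.4 to 8912 in IleR, 8218 to 9942 in LeuR and 8569 to 9434 in ValR. LeuR 21 was the only restricted library within the Control range of that sum. The 13 mitochondrial members summed to 38992 to 41943, 30927 to 45382, 39013 to 50861 and 32941 to 47754 CPM, with overlap in each diet. Of the total counts before TMM scaling, the mitochondrial members took 3.25% to 5.09% in males and the nuclear ones 0.723% to 0.995%.

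**Figure D4:**
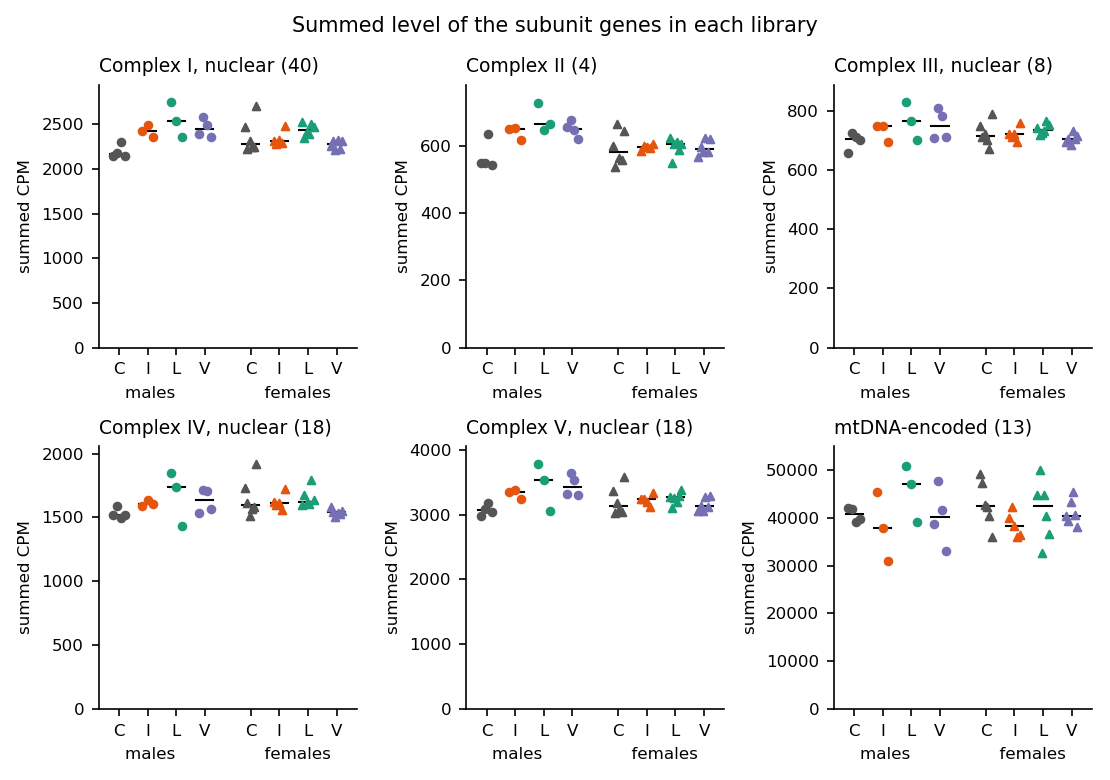
Summed CPM of the members in each male (circles) and female (triangles) library for 6 groups of genes by complex and genome, in Control (C), IleR (I), LeuR (L) and ValR (V); points are libraries and bars are group medians. In males the nuclear complex I sum reaches 2306 CPM at most in Control and at least 2359 in the restricted groups, while the mitochondrial sum overlaps.

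Upstream sequence is shown because the called members sit in different complexes and on different chromosomes, and the question is whether their promoters share letters. A RefSeq table of GRCm38.p6 held 300 bases around the start (250 before and 50 after it) for 69 of the 101 members, among them 19 called higher in at least 1 diet, and for 27025 genes in all. Each motif was searched on both strands. GCGCA, any base and then GCGC, the letters bound by nuclear respiratory factor 1 (NRF1), occurred in 18 of 69 members (26.1%) and in 5.19% of all genes, and in 6 of the 19 called members. CCGGAAG, an ETS family core, occurred in 23.2% of members and 9.93% of all genes, AAGATGG, a YY1 core, in 15.9% and 7.28%, and CAAGGTCA, the site of estrogen-related receptors, in 4 members and 1.76%. GGGGCGG (SP1) was in 27.5% and 25.5%, CCAAT in 40.6% and 41.1%, and TATAAA in 8.70% and 15.7%. No motif holds another. A match is a description of letters and not of a bound site. Below, capitals mark the NRF1 letters in called members (Ndufa5, Ndufs6, Sdhd, Atp5pd) and in Sdha, which edgeR did not call, and the SP1 letters in Ndufv3, in which the NRF1 letters were not found.
Ndufa5 (chr6:24527697-24527726, minus strand): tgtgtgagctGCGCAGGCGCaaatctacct
Ndufs6 (chr13:73328483-73328512, minus strand): ccgccgactgctgtGCGCCTGCGCcggcac
Sdhd (chr9:50603909-50603938, minus strand): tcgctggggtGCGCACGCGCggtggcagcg
Atp5pd (chr11:115420041-115420070, minus strand): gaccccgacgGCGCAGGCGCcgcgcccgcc
Sdha (chr13:74350276-74350305, minus strand): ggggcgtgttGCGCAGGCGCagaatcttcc
Ndufv3 (chr17:31519964-31519993, plus strand): cccaaatcggaGGGGCGGgactttcagcgg
Each is a stretch of 30 bases upstream of a RefSeq start, written 5′ to 3′ along the gene. GENCODE M21 places some starts elsewhere: the stretches of Ndufa5 and Ndufs6 lie within the GENCODE gene and that of Sdha crosses its start. Ndufs6 carries the motif in the reverse orientation.

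The restricted diets were also compared with each other in males. No member was called between IleR and LeuR, ValR and LeuR, or ValR and IleR by edgeR's quasi-likelihood test. At an unadjusted p under 0.05 there were 6, 9 and 0 members (11.3%, 23.9% and 2.83% of all genes), and DESeq2 called 0, 6 and 0. Without male ValR 9, edgeR called 3 between ValR and LeuR. Of all genes, 0.0%, 2.75% and 0.0% were called. Closest to the threshold were Ndufb3 in ValR against LeuR, with a log2 fold change of -0.28 (SE 0.075, adjusted p = 0.056), and Ndufa8, a complex I accessory subunit, with -0.31 (SE 0.087, adjusted p = 0.062). Ndufa8 was also the nearest in IleR against LeuR, at -0.28 (SE 0.094, adjusted p = 0.371). Ndufs3, a core subunit of complex I, had the smallest p in ValR against IleR, with 0.16 (SE 0.074, adjusted p = 1.00).

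In females no member was called in any diet by edgeR's quasi-likelihood test, as was the case for all 20344 genes tested (0.0% called). At an unadjusted p under 0.05 there were 3 members in IleR (2.84% of all genes), 8 in LeuR (4.03%) and 7 in ValR (3.82%), and DESeq2 and limma voom called 0. The median log2 fold change of the members was -0.022, 0.032 and -0.062. It was above 0 for 34, 63 and 17 of the 101 members, where 46.7%, 50.6% and 47.4% of all genes were above 0. In IleR, LeuR and ValR, 0 members had every library above every Control library, where 0.108%, 0.133% and 0.0737% of all genes did, and 0 had every library below, where 0.143%, 0.0836% and 0.0541% did. In females, Ndufv3 ran from 36.4 to 52.3 CPM in Control (median 40.8), from 43.4 to 54.8 in LeuR (median 46.3) and from 35.8 to 45.3 in ValR (median 42.5), and was 42.8, 34.1, 37.8, 46.6 and 43.6 in IleR. All groups overlapped, with log2 fold changes of -0.046, 0.18 and -0.030. In females, Sdhc ran from 64.0 to 89.2 CPM in Control (median 71.1), from 65.7 to 86.7 in LeuR (median 76.8) and from 67.3 to 82.2 in ValR (median 76.1), and was 67.7, 63.5, 68.6, 79.0 and 73.2 in IleR. These also overlapped, with -0.085, 0.032 and 0.0014.

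The smallest p in IleR belonged to Ndufc2, of the complex I membrane arm, with -0.26 (SE 0.091, adjusted p = 1.00), mt-Nd4l with -0.41 (SE 0.15, adjusted p = 1.00) and Cox6a2 with 1.29 (SE 0.51, adjusted p = 1.00). In LeuR it belonged to Ndufa3 with 0.27 (SE 0.079, adjusted p = 0.968), Atp5f1e with -1.81 (SE 0.55, adjusted p = 0.968) and the complex III subunit gene Uqcrb with 0.20 (SE 0.065, adjusted p = 0.968). In ValR, Ndufb3 had -0.15 (SE 0.049, adjusted p = 1.00), Cox7c -0.14 (SE 0.057, adjusted p = 1.00) and Atp5mj -0.15 (SE 0.063, adjusted p = 1.00). Ndufb3 in female ValR was at 40.1 to 43.8 CPM (median 40.6) and in Control at 43.1 to 50.5 (median 45.2).

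The difference of the diet effect between the sexes was tested in 1 model of all 37 libraries. For IleR and LeuR no member was called, where 0.0979% and 0.00445% of all 22465 genes were. At an unadjusted p under 0.05 there were 16 and 32 members (19.1% and 13.0% of all genes), and DESeq2 called 5 and 0. Without female IleR 41, edgeR called 4 for IleR, and without male Control 4 it called 1 for LeuR. For ValR, 4 members were called lower in females than in males and 0 higher, where 0.677% of all genes were called lower and 3.57% higher. The female minus male log2 difference was -0.53 (SE 0.13, adjusted p = 0.023) for Ndufv3, -0.44 (SE 0.12, adjusted p = 0.036) for Ndufa4, -0.41 (SE 0.11, adjusted p = 0.037) for Ndufa6 and -0.33 (SE 0.094, adjusted p = 0.044) for Ndufa5. The count was 0 by limma voom, 17 by DESeq2 and 0 with the score in the model. It was 0 without male Control 1, 1 without male ValR 10 or female ValR 35, 2 without male Control 5, male ValR 12 or female Control 30, 7 without female IleR 41 or LeuR 44, 11 without male Control 4, 12 without female LeuR 45 and 15 without female ValR 36. The males and females differed in region markers too: the male groups differed in hindbrain score and the female groups overlapped, and the part of this in the difference was not tested beyond the covariate.

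Since the hindbrain score varied within the female groups, the change of each member per unit of score was fitted there, with diet in the model. By edgeR's quasi-likelihood test, 18 members rose and 20 fell with the score, where 22.2% of all genes rose and 24.0% fell (46.1% in either direction). The slope was above 0 for 54 of the 101, where it was for 48.7% of all genes and for 46.1% of those whose mean log2 CPM reached 4; of the latter, 26.7% rose and 33.8% fell. Mitochondrial members fell: 12 of 13 were called, all but mt-Co3, with slopes of -0.082 to -0.041 log2 units per unit of score. mt-Cytb had -0.050 (SE 0.0094, adjusted p = 0.00013), mt-Nd1 -0.048 (SE 0.0087, adjusted p = 0.00010) and mt-Atp8 -0.072 (SE 0.013, adjusted p = 0.000093). With library totals in place of TMM, 9 of the 13 fell. The male libraries, in which diet and score cannot be told apart, had 0 mitochondrial members called by edgeR in any diet: mt-Cytb was at 5001 to 5780 CPM in male Control, with the lowest scores, and at 4320 to 6222 in ValR, with the highest, and mt-Atp8 at 162 to 319 and 249 to 441.

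Nuclear members moved both ways. Largest were the rare complex IV forms: Cox7a1 rose by 0.23 (SE 0.030, adjusted p = 0.0000016) and Cox6b2 by 0.23 (SE 0.032, adjusted p = 0.0000060) per unit, while Cox6a2 had -0.29 (SE 0.050, adjusted p = 0.000067). Ndufb2 had 0.047 (SE 0.0095, adjusted p = 0.00034), Sdhc 0.038 (SE 0.0076, adjusted p = 0.00027) and Ndufv3 0.036 (SE 0.0093, adjusted p = 0.0031). Among nuclear genes that fell were the ATP synthase inhibitor Atp5if1 with -0.041 (SE 0.0079, adjusted p = 0.00021), the supercomplex factor Cox7a2l with -0.039 (SE 0.0074, adjusted p = 0.00016) and Ndufb9 with -0.032 (SE 0.0079, adjusted p = 0.0023). Of the 22 members called in any male diet, 12 were called in the same direction with the score in females: Atp5pd, Cox6a2, Cox6b2, Cox7a1, Ndufa4, Ndufa6, Ndufab1, Ndufb7, Ndufb8, Ndufv3, Sdhc and Sdhd. The other 10 were not called with it: Atp5mf, Atp5mg, Atp5po, Ndufa12, Ndufa13, Ndufa2, Ndufa5, Ndufb10, Ndufb11 and Ndufs6. Of all 5754 genes called in a male diet and tested in females, 82.3% were called in the same direction with the score, and the difference from the members was not tested. Female Control 30, which has the highest score of its group, weighed on the count: without it 7 members rose. Library totals without TMM scaling changed the split to 48 rising and 12 falling.

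**Figure D5:**
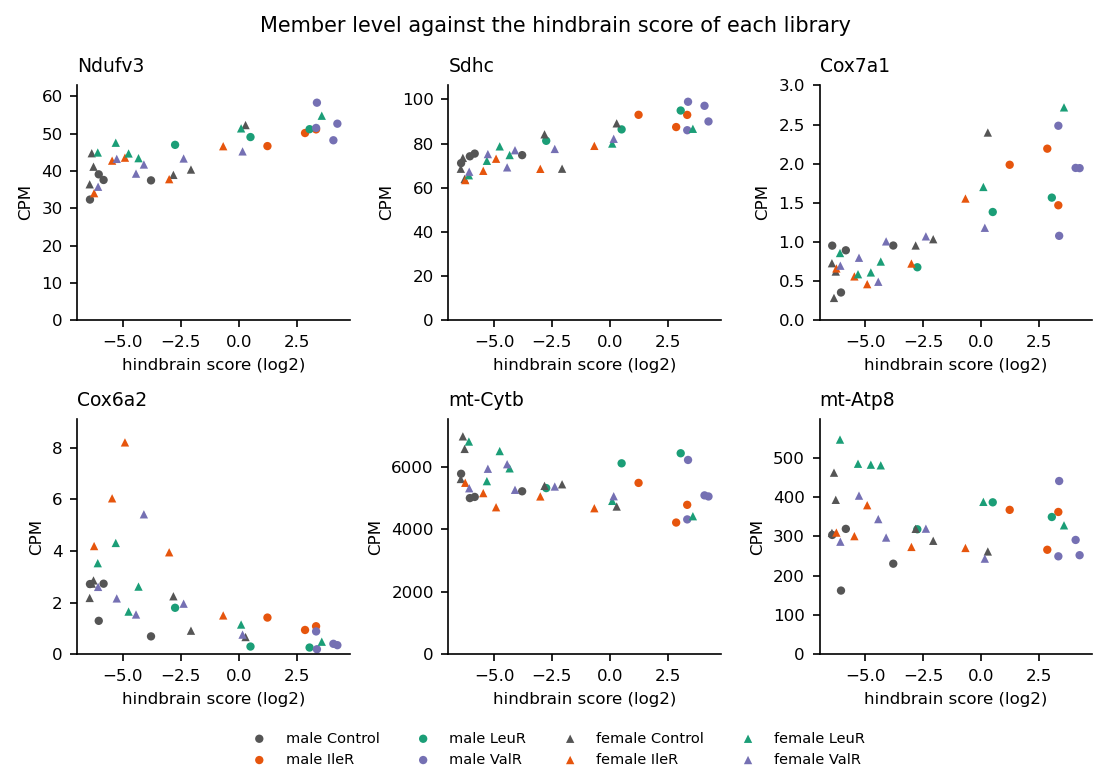
CPM of 6 members in the male and female libraries against the hindbrain score of the library (difference of mean log2 CPM between hindbrain and forebrain markers); points are libraries, by sex and diet. Ndufv3, Sdhc and Cox7a1 are higher and Cox6a2, mt-Cytb and mt-Atp8 lower at high scores in females, and the 4 male Control libraries lie at lower scores than all restricted male libraries.

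Genes that build, feed or control the system were followed in males as 6 lists, by the same test, where 6.63% of all genes were called higher and 8.68% lower in IleR, 3.81% and 6.33% in LeuR, and 11.1% and 12.4% in ValR. The lists were not tested against these shares. When the model also held the score, 0 of 22197 genes were called lower in IleR, LeuR or ValR. In those fits 3 genes were called higher in IleR, 11 in LeuR and 0 in ValR. The falls and the ValR rises named for these lists were therefore all lost there, and the cause was not tested. Repeats that leave out 1 library are not given for the lists. The counts that follow come from the fit without the score. Of 51 assembly factors, the numbers higher and lower were 0 and 1 in IleR, 1 and 1 in LeuR, and 2 and 3 in ValR, with median log2 fold changes of 0.015, 0.093 and 0.047. Ttc19, a factor for complex III, fell in each diet, with -0.84 (adjusted p = 0.0042), -0.65 (adjusted p = 0.024) and -1.09 (adjusted p = 0.00028). Ndufaf2, the assembly relative of Ndufa12, rose in LeuR at 0.73 (adjusted p = 0.031). In ValR, Sdhaf1 for complex II was at 0.47 (adjusted p = 0.036) and Cox14 for complex IV at 0.46 (adjusted p = 0.014), while Coa5 and Uqcc2 fell, at -0.32 (adjusted p = 0.023) and -0.26 (adjusted p = 0.028). Of 18 citric acid cycle and pyruvate dehydrogenase genes, the numbers were 0 and 0 in IleR, 0 and 0 in LeuR, and 3 and 0 in ValR, with medians of 0.024, 0.16 and 0.10: Ogdh was at 0.27 (adjusted p = 0.044), Idh3g at 0.24 (adjusted p = 0.038) and Idh3b at 0.22 (adjusted p = 0.047) in ValR.

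Of 25 genes tested for mitochondrial DNA maintenance and expression, the numbers higher and lower were 2 and 0 in IleR, 0 and 1 in LeuR, and 5 and 0 in ValR, with medians of 0.030, 0.075 and 0.048. Polg2, the accessory subunit of the mitochondrial DNA polymerase, was at 1.03 (adjusted p = 0.019) in IleR and 0.99 (adjusted p = 0.012) in ValR, and the catalytic subunit Polg at -0.47 (adjusted p = 0.031) in LeuR. Polrmt, the mitochondrial RNA polymerase, was at 0.52 (adjusted p = 0.0056) and its partner Tfam at 0.27 (adjusted p = 0.049) in ValR, where the 13 transcripts of mitochondrial DNA were not called. Of 14 regulators of nuclear subunit genes, 2 and 0 in IleR, 0 and 0 in LeuR, and 4 and 0 in ValR were called, with medians of 0.15, -0.045 and 0.20. The estrogen-related receptors Esrrb and Esrrg were at 2.01 (adjusted p = 0.0095) and 1.30 (adjusted p = 0.014) in ValR, with Sp1 at 0.42 (adjusted p = 0.018) and the coactivator Ppargc1b at 0.76 (adjusted p = 0.041); Nrf1 was at 0.31 (adjusted p = 0.104), Gabpa at 0.16 (adjusted p = 0.496) and Ppargc1a at 0.26 (adjusted p = 0.167), not called.

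Of 27 genes tested for electron carriers and adenylate transport, 1 and 2 in IleR, 2 and 1 in LeuR, and 5 and 4 in ValR were called, with medians of 0.048, 0.085 and 0.13. Coq4, needed to make ubiquinone, fell in each diet, at -0.63 (adjusted p = 0.0055), -0.54 (adjusted p = 0.019) and -0.63 (adjusted p = 0.0018), and the carrier Slc25a14 in IleR and ValR, at -0.77 (adjusted p = 0.0045) and -0.82 (adjusted p = 0.00097). Etfa, of the electron transfer flavoprotein, was at 0.49 (adjusted p = 0.047) in LeuR and 0.48 (adjusted p = 0.020) in ValR. Cytochrome c, Cycs, was at 0.037 (adjusted p = 0.836) in ValR, not called. Of 29 import genes, 3 and 0 in IleR, 0 and 0 in LeuR, and 1 and 0 in ValR were called, with medians of 0.023, 0.13 and 0.040; Hspa9, the matrix chaperone, was at 0.35 (adjusted p = 0.0077) in IleR. Where a list had 0 genes called higher, those higher at an unadjusted p under 0.05 by edgeR were 5 assembly factors in IleR, 3 citric acid cycle genes in IleR and 3 in LeuR, and, in LeuR, 3 genes of mitochondrial DNA expression, 2 regulators and 7 import genes. The median over all genes tested was 0.043, 0.053 and 0.032 in the male comparisons.

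Cell type markers moved in the same male libraries. In IleR, LeuR and ValR the numbers higher and lower were 14 and 0, 9 and 0, and 15 and 0 of 15 cerebellar, 8 and 0, 8 and 0, and 10 and 0 of 15 brainstem and spinal cord, and 0 and 13, 0 and 7, and 0 and 13 of 15 forebrain markers. They were 1 and 2, 1 and 1, and 1 and 3 of 10 pan-neuronal, 4 and 1, 1 and 1, and 5 and 1 of 8 parvalbumin-cell, 2 and 1, 2 and 1, and 4 and 1 of 10 astrocyte and 0 and 3, 0 and 0, and 0 and 4 of 10 microglial markers. For pericyte and smooth muscle markers they were 0 and 0, 1 and 0, and 1 and 0, for striated muscle 0 and 3, 0 and 2, and 0 and 4, and 0 in each direction and diet for oligodendrocyte, blood and choroid plexus markers. At an unadjusted p under 0.05, however, oligodendrocyte markers were higher for 6 in IleR, 7 in LeuR and 5 in ValR and lower for 0, and blood markers were higher for 7 in LeuR and for 0 in the other diets, while choroid plexus markers had 0 in each. Their part in the subunit values was not tested beyond the fit with the hindbrain score.

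Some members could not be measured with the same certainty. Of the 101, 33 share exon bases with a gene on the other strand and 12 with one on the same strand, among them mt-Atp8 with mt-Atp6 (43 bases) and mt-Nd4l with mt-Nd4 (7 bases). Values that were not whole, which arise when reads are divided between genes, occurred for 28 members in males (17 of them in every library) and 32 in females (14). Atp5f1e, the epsilon subunit of ATP synthase, fell into 2 ranges in males, 9 libraries at 4.02 to 6.16 CPM and 5 at 27.0 to 52.5, and in females 12 at 3.89 to 13.0 and 11 at 25.3 to 57.5 (split at 15 CPM after seeing the values). In males its levels were 4.02, 27.0, 4.26 and 4.53 CPM in Control, 29.5, 5.16 and 6.16 in IleR, 4.25, 34.1 and 6.15 in LeuR and 52.5, 32.2, 4.07 and 5.22 in ValR, so that both ranges occurred within a diet. The copy Ndufs5-ps stood per length at 36.2% to 119.8% of Ndufs5 in Control and at 0.301% to 103% in IleR. Values of Atp5f1e, Ndufs5 and Ndufs5-ps are therefore uncertain as levels of 1 gene.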

How the data were processed

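RNA of 3xTg mouse brains was measured by RNA-seq, and 37 of 47 labelled libraries were analysed. Per the labels and the methods, the authors aligned reads to GRCm38.p5 and deposited 1 expected count per Ensembl gene and library; the aligner, annotation release and strand setting are not given in the sources used here. Per library, 3.69% to 4.93% of values were not whole, and counts were rounded. The authors' tables of compared genes hold log2 fold changes and p-values, per the submitters' notes from R 3.4.3 with edgeR and limma; only their symbols and identifiers were used. The authors removed clear outliers after principal component analysis, which can narrow the spread within groups.

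A gene was tested in a sex if some diet group had at least 1 count in each of its libraries. The 4 diets of each sex shared 1 fit, by edgeR's quasi-likelihood test after TMM scaling (R 4.3.3, edgeR 4.0.16), with Benjamini-Hochberg adjustment over all genes and a threshold of 0.05; both sexes entered 1 fit for the difference between sexes. DESeq2 1.42.0 and limma 3.58.1 (voom, as in the study's methods) were alternatives, beside other scalings and filters, single comparisons, the hindbrain score as a covariate and leaving out each library. CPM is after TMM, log2 CPM has a prior count of 2, and RPKM divides by all exon bases of a gene in GENCODE M21 (GRCm38), which understates genes with long rare isoforms. The hindbrain score averages 2 marker means (log2 CPM), cerebellar and brainstem with spinal cord, and subtracts the forebrain mean. Counting error is small beside the spread between libraries except for members with few counts, and depth limits those most. The tests were checked on simulated counts with changes larger than most of those called here and without differences in region make-up. That check does not cover changes of the size called in complex I.

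The members, lists and tests were chosen with earlier results of these data known. Genes were named by rule: mitochondrial members, the largest called rise and fall per complex and diet, fixed core subunits and isoforms, the smallest p where none was called and the largest slopes, called genes having to reach a mean log2 CPM of 1. Called members outside it (Atp5mg, Atp5pd, Ndufa12, Ndufa13, Ndufa2, Ndufa6, Ndufab1, Ndufb11, Ndufb8, Ndufs6 and Sdhd) were named after their values were seen, as were Atp5if1 and the gene copies. Ndufb3 and Atp5f1e met the rule by the smallest p in some comparisons, and their other values were shown after they were seen. Some genes are not reported here.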

Additional observations from a re-analysis of the deposited data

Results flagged for a closer look

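In groups of 4 to 6 libraries, 498 sets of values of single genes or sums were looked at for 1 library far from the others by Dixon's criterion at 95%, and 27 met it; chance alone marks about 5% of such sets. Female Control 30, the library with the highest hindbrain score of its group, gave 9 of the 27, each time as the highest of the female Control libraries: Atp5f1b at 1033 CPM against 826 to 899.8, Cox4i2 at 2.17 CPM against 0.819 to 1.14, Cox7a1 at 2.40 CPM against 0.286 to 1.04, Ndufa12 at 88.1 CPM against 62.8 to 70.8, Ndufb2 at 62.5 CPM against 37.0 to 44.1, Ndufb3 at 50.5 CPM against 43.1 to 45.6, Ndufc2 at 102 CPM against 68.5 to 78.5, Ndufs6 at 34.8 CPM against 28.0 to 30.1 and Ndufs7 at 94.1 CPM against 67.1 to 75.9 in the other libraries. Female Control 29 was the lowest for Uqcrc1 at 174 CPM against 191 to 199.7.

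Male Control 4, the male Control library with the highest hindbrain score, lay above the other male Control libraries for Atp5f1a at 818 CPM against 732 to 739.9, Ndufb8 at 78.7 CPM against 62.2 to 64.7, Sdha at 421 CPM against 337 to 349, Uqcrb at 48.1 CPM against 40.2 to 41.3 and the summed CPM of nuclear complex II genes at 635 CPM against 544 to 551. Male Control 3 was set apart for Atp5f1e at 27.0 CPM against 4.02 to 4.53, Cox7a1 at 0.355 CPM against 0.894 to 0.955 and Cox7a2 at 69.6 CPM against 61.9 to 62.1.

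Among female restricted libraries, IleR 42 was the highest for Atp5po at 128 CPM against 114 to 117 and for the summed CPM of nuclear complex I genes at 2485 CPM against 2278 to 2327. IleR 41 stood apart for Cox7a1 at 1.55 CPM against 0.461 to 0.725 and Ndufa8 at 62.4 CPM against 69.9 to 72.2, and IleR 39 for Ndufb3 at 38.9 CPM against 44.4 to 45.6. LeuR 44 stood apart for Cox8b at 2.67 CPM against 0 to 0.927, ValR 32 for Atp5f1e at 3.89 CPM against 25.3 to 28.3, and ValR 35 for Cox6b1 at 87.2 CPM against 97.4 to 103 and Ndufa13 at 54.6 CPM against 63.6 to 67.4.

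For 4 complex I and IV genes the ValR effect differed between the sexes by edgeR's quasi-likelihood test of the difference: the female minus male log2 difference was -0.53 for Ndufv3, -0.44 for Ndufa4, -0.41 for Ndufa6 and -0.33 for Ndufa5.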

How the results depend on the processing

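In males, the members called higher (8 in IleR, 9 in LeuR, 15 in ValR) were 22, 26 and 29 with library totals without TMM, which moved the median log2 fold change of all genes from 0.043 to 0.17 in IleR, from 0.053 to 0.15 in LeuR and from 0.032 to 0.12 in ValR. They were 24 in LeuR by DESeq2, 0 in LeuR and 8 in ValR with only the 2 groups compared, 9 in ValR with no filter on low counts, and 0 in each diet with the hindbrain score as a covariate. The 1 member lower in ValR was 2 by DESeq2 and 0 with the covariate. With the covariate, log2 fold changes that had been called changed sign in ValR for Atp5pd (-0.15), Atp5po (-0.14), Cox6a2 (2.80), Cox6b2 (-0.20), Cox7a1 (-0.19), Ndufa4 (-0.18), Ndufa5 (-0.071), Ndufa6 (-0.089), Ndufab1 (-0.018), Ndufb10 (-0.24), Ndufb8 (-0.44) and Sdhd (-0.16), and in IleR for Ndufb10 (-0.11); the cause was not tested, since diet and score cannot be told apart in males. ValR against LeuR went from 0 to 6 by DESeq2. The difference between sexes went from 0 to 5 in IleR by DESeq2, and in ValR from 4 to 0 by limma voom, 17 by DESeq2 and 0 with the covariate. With the score in females, 18 rising and 20 falling members became 48 and 12 without TMM; with mitochondrial genes left out, 8 fell, as many as the nuclear members among the 20. Leaving out 1 library gave 1 to 12 higher in IleR, 1 to 38 in LeuR and 3 to 24 in ValR, 0 to 0, 0 to 1 and 0 to 1 lower, 0 to 0 in each female diet, 0 to 0 between IleR and LeuR and between ValR and IleR, 0 to 3 between ValR and LeuR, 0 to 4, 0 to 1 and 0 to 15 for the difference between sexes in IleR, LeuR and ValR, and 7 to 24 rising and 14 to 23 falling with the score. The other settings (DESeq2's size factors, limma voom in the male diets, the score without diet terms) kept these counts within 1.5 times. No paired analysis was possible because each library's title number is unique to it.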
